A study of Mus musculus with 31 samples.

Results

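Annexin genes, S100 genes and the annexin-binding scaffold gene Ahnak were followed across mouse sensory neurons whose ribosome-bound RNA had been captured from cell bodies and from axons. The 10 genes, Anxa1, Anxa2, Anxa5, Anxa6, S100a4, S100a6, S100a10, S100a11, S100b and Ahnak, were taken by symbol from 55536 genes counted in 31 libraries. They were chosen by name with measured values of these data already known, and which values led to each gene is not recorded. S100b had been named before for its lower level in central axons than in cell bodies, so its values in that comparison are given with no test. Counts of members that pass a test are descriptions and support nothing about the set. In TRAP (translating ribosome affinity purification), a GFP-tagged ribosomal protein is pulled down with the RNA its ribosomes carry. The Cre mice were Nav1.8-Cre;L10a-eGFP-fl/fl, in which Cre driven from the sodium channel gene Scn10a (Nav1.8) switches on the tag, so that the tagged cells are those that have expressed Nav1.8 at any time. The controls were L10a-eGFP-fl/fl mice without Cre, which carry the same floxed tag and gave the RNA that the pulldown recovers with no tagged ribosome. Lumbar dorsal root with spinal cord served as the source of central axons. Sciatic nerve gave peripheral axons, and lumbar dorsal root ganglia gave the somas (cell bodies). Batch 1 held central axons and somas (4 Cre and 4 control libraries each), and batch 2 held peripheral axons (4 Cre, 3 control) and other somas (4 and 4). Axon type and batch therefore cannot be told apart, and each axon was compared with the somas of its own batch. The labels call the libraries biological replicates and give no age, treatment or pooling of animals.

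Annexins are proteins that bind acidic membrane lipids when calcium rises, and S100 proteins are small calcium sensors that bind annexins and other partners. Anxa2 and S100a10 (p11) form a stable complex that links membranes, the actin skeleton and the giant scaffold protein Ahnak. In nociceptors S100a10 is known for bringing Nav1.8 channels to the cell surface, and S100b is best known as a marker of Schwann cells and other glia.

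Total counts ran from 3.60 to 19.6 M (mega) per library, so that 3 counts, taken as the floor of detection, were worth 0.153 to 0.833 CPM (counts scaled to the library total). Intervals and floors of this kind cover counting error only, since the reads carry no molecular identifiers. The library labelled soma control 3 of batch 1 stood apart: its TMM scaling factor (edgeR's correction for composition) was 0.0547, against 1.30 to 1.78 in the other 7 soma libraries of that batch. Nociceptor markers (10 genes, Scn10a among them) summed to 873 to 4950.0 CPM in central axon Cre libraries and 98.8 to 439 in their controls, with Trpa1 at 0 throughout the former. In peripheral axons the sums were 452 to 1545 CPM in Cre and 242 to 1166 in control libraries and overlapped. In somas the ranges were 2561 to 5702 (Cre) and 1076 to 3516 (control) in batch 1, and 2456 to 4348 and 1543 to 2965 in batch 2. Soma controls thus held nociceptor markers at levels that overlapped the Cre somas. Markers of Schwann cells and satellite glia (12 genes, none at 0 in any group) summed to 10891 to 29139 CPM in peripheral axon Cre libraries and to 621 to 849 in the Cre somas of that batch. In bulk RNA, more cells of a type and more RNA per cell cannot be told apart.

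The members lie on 5 chromosomes of GRCm38 (GENCODE M21), all protein-coding. S100a4 (3:90603771-90606045) and S100a6 (3:90612882-90624181) are neighbours on the plus strand, 6836 bases apart. S100a11 (3:93520488-93526287) and S100a10 (3:93555080-93564643) are neighbours on the same strand, 28792 bases apart. Anxa5 lies at 3:36448923-36475894 (minus), Anxa2 at 9:69453620-69491795 (plus), Anxa6 at 11:54979108-55033445 (minus) and S100b at 10:76253853-76261159 (plus). Anxa1 (19:20373428-20390944, minus) and Ahnak (19:8989284-9076914, plus) share chromosome 19. Of the exon bases of S100a4, 51.7% are shared on the same strand with Gm42674, so its counts are uncertain. For Anxa2, 2.63% of exon bases lie opposite Gm16144, whose reads cannot be told apart from its own without strand.

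Promoter sequences were matched for 8 of the 10 members in RefSeq (GRCm38.p6) and span 250 bases before to 50 after the start. Those of Anxa2 (chr9:69453433-69453732, plus), S100a11 (chr3:93520246-93520545, plus), Anxa5 (chr3:36475838-36476137, minus) and S100a6 (chr3:90612644-90612943, plus) are shown because the levels of these genes rose and fell together over the 31 libraries, as described further on. Capitals mark matches, on either strand, to TGANTCA (AP-1), GGGCGG (GC box), TATAAA and CCAAT.
Anxa2: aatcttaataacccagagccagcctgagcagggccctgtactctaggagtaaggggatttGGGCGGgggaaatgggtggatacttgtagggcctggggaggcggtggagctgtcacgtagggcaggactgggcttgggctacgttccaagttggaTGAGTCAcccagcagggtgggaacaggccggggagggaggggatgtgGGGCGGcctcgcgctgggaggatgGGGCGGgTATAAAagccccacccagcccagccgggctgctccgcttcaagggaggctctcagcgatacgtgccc
S100a11: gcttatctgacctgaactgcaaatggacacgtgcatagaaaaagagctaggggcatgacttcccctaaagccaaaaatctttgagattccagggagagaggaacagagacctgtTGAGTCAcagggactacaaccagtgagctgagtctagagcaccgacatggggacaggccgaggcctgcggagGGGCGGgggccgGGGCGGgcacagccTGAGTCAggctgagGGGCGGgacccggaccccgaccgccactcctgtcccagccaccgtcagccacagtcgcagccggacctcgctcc
Anxa5: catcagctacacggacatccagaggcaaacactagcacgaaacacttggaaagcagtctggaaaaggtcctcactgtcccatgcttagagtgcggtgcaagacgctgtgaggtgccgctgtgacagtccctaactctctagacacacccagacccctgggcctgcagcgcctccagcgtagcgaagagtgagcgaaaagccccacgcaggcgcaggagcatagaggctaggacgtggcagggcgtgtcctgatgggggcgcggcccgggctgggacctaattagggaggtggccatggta
S100a6: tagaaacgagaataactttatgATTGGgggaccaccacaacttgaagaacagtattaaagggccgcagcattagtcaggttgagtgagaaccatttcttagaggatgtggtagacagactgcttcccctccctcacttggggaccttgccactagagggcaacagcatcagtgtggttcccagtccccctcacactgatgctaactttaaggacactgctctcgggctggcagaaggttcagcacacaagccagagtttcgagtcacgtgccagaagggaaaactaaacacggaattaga
The AP-1 letters stand at 1 place in the Anxa2 window and 2 in the S100a11 window, and 7.93% of 27025 mouse promoters of this length hold them. Both windows hold 3 GC boxes, which 35.9% of promoters hold at least 1 of. Anxa2 also has TATAAA (in 14.2% of promoters), just after its last GC box. The S100a6 window holds 1 CCAAT (on the opposite strand, in 37.9% of promoters), and the Anxa5 window holds none of these 4 motifs. No motif of the 4 stood in all of these windows. The S100b window holds 2 CCAAT matches and that of Ahnak 4 GC boxes. A match is a description of letters, not of a bound site.

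**Figure D1:**
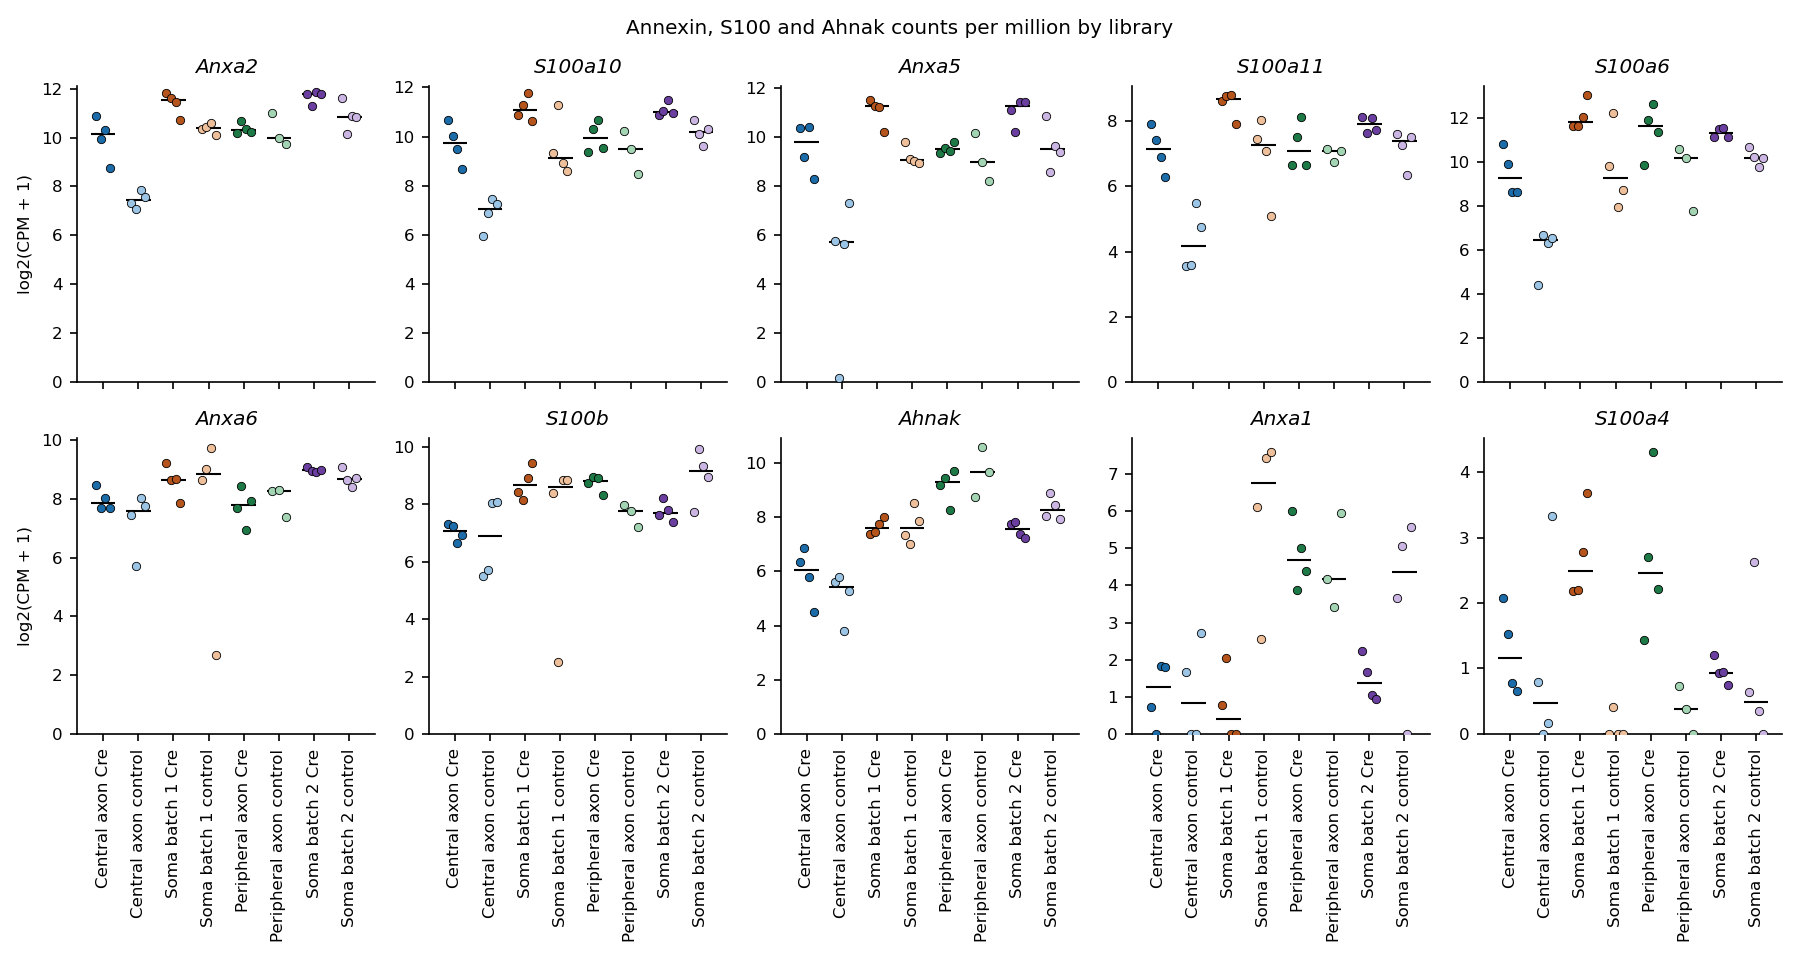
Levels of the 10 genes in each of 31 libraries, as log2 of CPM plus 1 (vertical axis), by group (horizontal axis). Each point is a library and each bar the group median on that scale. In the panels of Anxa2, S100a10, Anxa5, S100a11, S100a6, Anxa6 and Ahnak the central axon controls have the lowest median.

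Most members were abundant. Per length of transcript (TPM, counts scaled by exon length and then by library), the medians in batch 2 Cre somas were 4394 for S100a6, 4018 for S100a10, 3392 for Anxa5, 2360.2 for Anxa2 and 1143 for S100a11. Anxa6, an annexin of the plasma membrane and endosomes, followed with 413 TPM and S100b with 345 TPM. Ahnak, a very long transcript, stood at 22.1 TPM in these somas, S100a4 at 3.54 and Anxa1 at 1.26. Anxa1, an annexin known for its part in ending inflammation, and S100a4, an S100 protein known from motile cells and fibroblasts, were the least abundant members in these somas. Anxa1 reached group medians of 17.2 to 119.5 CPM in peripheral axons and in control somas, and every group median of S100a4 was at or below 4.74 CPM.
In CPM, the order of the Anxa2 group medians ran from batch 2 Cre somas (3523) and batch 1 Cre somas (2980) through both control somas (1859 and 1340.4), peripheral axon Cre (1260), central axon Cre (1137) and peripheral axon control (999.5) to central axon control (173). Neighbours in this order overlapped except the last step. For S100a10 the order was headed by the Cre somas of batch 1 (2197) and batch 2 (2056), the latter not overlapping the batch 2 control somas (1180.1) below. Ahnak ran otherwise, from peripheral axon control (805) and Cre (636) through 4 soma groups between 189.5 and 306 to central axon Cre (66.8) and control (42.6). S100b was highest in batch 2 control somas (569) and lowest in central axon Cre libraries (136), and every pair of neighbours in its order overlapped.

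Whether the tagged pulldown held more member RNA than the untagged was asked first in central axons. Anxa2, its partner S100a10, S100a6, S100a11 and Anxa5 stood higher in every Cre library than in any control, but no member passed the adjusted threshold.
Anxa2, the lipid-binding partner of the complex, had 1870.4, 994.5, 1279 and 432 CPM in Cre libraries 1 to 4 and 157, 132.5, 229.8 and 189 in controls 1 to 4. The fitted difference was 2.78 ± 0.47 on the log2 scale (SE), or 6.87-fold, with an adjusted p of 0.16 (edgeR quasi-likelihood test, Benjamini-Hochberg over all genes tested). Cre library 4 was the lowest of its group, and still above all controls.
S100a10 had 1628, 1027, 716 and 410.4 CPM in Cre libraries and 61.0, 117, 173 and 150.2 in controls. Its difference was 3.01 ± 0.51 log2 (adjusted p = 0.16). The order of Cre libraries was not the same as for Anxa2, but library 1 was highest and library 4 lowest in both genes.
S100a6, an S100 protein that binds annexins and the ubiquitin ligase adaptor Cacybp, had 1802, 960.0, 398 and 401 CPM against 19.96, 103, 79.2 and 92.2. The difference was 3.72 ± 0.67 log2, or 13.1-fold (adjusted p = 0.17). Cre libraries 1 and 2 were higher than 3 and 4, and control 1 lay apart at the bottom.
S100a11, a partner of Anxa1 known from membrane repair, had 242, 171, 118 and 77.2 CPM against 10.8, 11.1, 44.0 and 25.7, a difference of 2.81 ± 0.67 log2 (adjusted p = 0.23). Anxa5, the annexin used as a probe for exposed phosphatidylserine, had 1304, 584, 1342 and 312 CPM against 52.6, 0.128, 48.7 and 157. Control 2 held a single Anxa5 read, and the difference of 3.83 ± 1.20 log2 had the widest error of the 5 (adjusted p = 0.51).
These 5 of 9 members tested had Cre ranges wholly above the controls, as did 6.82% of all genes tested. Of the genes tested 0.0141% were called, and of the members 0; 684 genes had an unadjusted p under 0.05. The median difference was 2.78 log2 over the members and 0.11 over all genes.
The other members did not separate. Anxa6 (206 to 358 CPM in Cre, 52.1 to 262 in control libraries) differed by 0.61 ± 0.49 log2, Ahnak (21.6 to 114 against 12.97 to 54.5) by 0.89 ± 0.73, and S100b (98.8 to 158 against 44.1 to 267) by -0.20 ± 0.62. Anxa1 had at most 2.53 CPM in Cre and 5.63 in control libraries (-0.49 ± 1.89). S100a4 had at most 3.21 and 9.01 CPM, too few reads to be tested.
The calls depend on the model: DESeq2 called Anxa2, S100a6, S100a10 and S100a11 (4 of 9), and leaving out Cre library 4 called Anxa2 (3.05 log2, adjusted p = 0.034). Over all genes DESeq2 called 216, where edgeR called 2. Markers of Schwann cells and satellite glia ran the other way, 1898 to 9026 CPM in Cre and 3630.4 to 29851 in control libraries, and astrocyte markers (6 genes, none at 0) 296 to 1347 against 1329 to 2347. The part of these cells in the differences was not tested.

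In peripheral axons no such gap was seen. Anxa2 had 1173, 1650.1, 1304 and 1215 CPM in Cre libraries 1 to 4 and 2051, 999.5 and 854 in controls 1, 2 and 4, a difference of 0.13 ± 0.47 log2. S100a10 had 668.5, 1279.8, 1649 and 740.1 CPM against 1183, 722 and 358 (0.63 ± 0.57). Control 1 exceeded all Cre libraries for Anxa2 and stood among them for S100a10. S100a6 had 939, 3816, 6322 and 2638 CPM against 1529.7, 1170.5 and 218, a difference of 1.92 ± 0.86 that overlapped.
S100b had 430.4, 497, 477 and 320.0 CPM in Cre libraries and 250.6, 218 and 147.5 in controls, so that all Cre libraries stood above all controls (1.15 ± 0.40 log2). S100a4 had 7, 83, 77 and 21 counts in Cre libraries and 3, 2 and 0 in controls, which lie at or below the floor, and no fold is given for it. Ahnak stood at 577, 694, 307 and 824 CPM against 433, 1534 and 805, and Anxa1 at 13.6 to 63.2 against 9.71 to 60.7.
Of 10 members tested 0 were called, with an adjusted p of 1.0 for each (edgeR), and of all genes 0% were called; 514 genes had an unadjusted p under 0.05, S100a4, S100a6 and S100b among them, and DESeq2 called 0 members too. The median was 0.39 log2 over members and 0.07 over all genes. Fibroblast and perineurium markers (9 genes, none at 0) summed to 3862 to 6802 CPM in Cre and 5320 to 19610 in control libraries, and their part in these values was not tested.

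In somas of batch 2, 5 members (S100a6, S100a10, Anxa2, Anxa5 and S100a11) had fitted levels 0.90 to 1.53 log2 higher in Cre libraries, and none was called. S100a6 had 2246, 2851, 3033 and 2235 CPM in Cre libraries 5 to 8 and 1619, 1179.8, 867 and 1173 in controls 5 to 8, a difference of 1.37 ± 0.34 log2 (adjusted p = 0.082). S100a10 had 1865, 2120.2, 2847 and 1991 CPM against 1637, 1094, 778 and 1267 (1.16 ± 0.35, adjusted p = 0.14). In both genes every Cre library stood above every control, and control 5 was the nearest.
Anxa2 had 3530, 2504, 3744 and 3516 CPM against 3130.4, 1148, 1873 and 1845 (0.99 ± 0.38, adjusted p = 0.22). Anxa5 had 2190.0, 1165, 2751 and 2763 CPM against 1846, 374, 779.7 and 663 (1.53 ± 0.50, adjusted p = 0.16). For these annexins the ranges overlapped through Cre library 6 and control 5.
S100a11 had 196 to 277 CPM against 79.7 to 192 (0.90 ± 0.33). With S100a6 and S100a10 it made 3 of 10 members wholly above the controls, as were 4.29% of all genes tested.
S100b ran lower in Cre somas, at 196, 297, 222 and 168 CPM against 212, 980.5, 640.0 and 498 in controls (-1.11 ± 0.41, adjusted p = 0.20). So did Ahnak (150.1 to 225 against 245 to 475, without overlap, -0.55 ± 0.28) and Anxa1 (0.916 to 3.75 against 0 to 46.7, -3.31 ± 1.22).
The members called were 0 of 10 and 0% of all genes, with 2503 genes at an unadjusted p under 0.05. Control 5 had 18.1 M counts, near the Cre libraries and unlike the other 3 controls (3.60 to 4.52 M). Without it, 5 members passed in edgeR: Anxa5 at 2.19 (adjusted p = 0.019), S100a6 at 1.58 (0.021), S100a10 at 1.39 (0.031), Anxa2 at 1.35 (0.032) and S100b at -1.37 log2 (0.026). Over all genes that fit called 1826, where the main fit called 0. Schwann cell and satellite glia markers summed to 621 to 849 CPM in Cre and 1584 to 4528 in control somas. That range, like that of S100b, was higher in controls, and its part in the S100b value was not tested.

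In somas of batch 1 the result turned on soma control 3. Anxa2 had 3637, 3145, 2814 and 1699 CPM in Cre libraries 1 to 4 and 1298 in control 1, 1383 in control 3 and 1542 and 1104 in the 2 controls that carry no number of their own (a and b). S100a10 had 1897, 2498, 3485 and 1579 CPM against 634, 2488, 480.2 and 383 in the same order, and S100a6 3138, 3147, 4210.1 and 8327 against 891, 4813, 248 and 427. Anxa2 did not overlap between the groups, whereas for S100a10 and S100a6 control 3 stood within the Cre range and the other controls below it.
Scaled by TMM, the fitted differences were nonetheless negative, -1.97 ± 2.02 for Anxa2, -2.94 ± 2.43 for S100a10 and -2.94 ± 2.81 for S100a6. The median over the members was -2.45 and over all genes -0.45. Without control 3 they were 0.99 (adjusted p = 0.061), 2.16 (0.007) and 3.07 log2 (0.007), and Anxa5 was 1.75 (0.011). Over all genes that fit called 3094, where the main fit called 516. Under scaling by library size alone Anxa5 was 1.85 (0.011). The direction of these members in batch 1 somas therefore flips with that library and with the scaling, and no direction is given for them.
Anxa1 was the member called, 1 of 10, where 4.42% of all genes were called. It had 0.725, 3.12, 0 and 0 CPM in Cre somas and 68.1, 4.85, 171 and 192 in controls, without overlap (-7.41 ± 1.94 log2, adjusted p = 0.047, edgeR). The call was lost when any 1 of the other 7 libraries was left out (adjusted p 0.051 to 0.17) and kept without control 3 (0.032). Fibroblast and perineurium markers summed to 213 to 1257 CPM in Cre and 904 to 6166 in control somas, and their part in it was not tested. S100a4 had 34, 37, 68 and 89 counts in Cre somas and 0, 3, 0 and 0 in controls, at or below the floor.

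Axon and soma Cre libraries were compared next. Each can hold RNA of tagged ribosomes together with RNA that the pulldown recovers with no tag, and the comparison cannot separate them. In central axons every member tested had a lower fitted level than in batch 1 somas. Leaving aside S100b, which was chosen on this difference, 6 of 8 members were called, all lower, where 13.7% of all genes were called and 5.11% called lower. With S100b the count was 7 of 9. Which values led to the other members is not recorded, so both counts are descriptions. The median difference was -1.74 log2 over the members, S100b counted, and 0.05 over all genes.
S100a6 fell by 2.75 ± 0.60 on the log2 scale, or 6.74-fold (adjusted p = 0.011), from the 3138 to 8327 CPM given for the somas to 398 to 1802, without overlap. Ahnak had 79.5, 114, 54.0 and 21.6 CPM in central axons and 164, 174, 213 and 257 in somas (-1.99 ± 0.45, adjusted p = 0.013). Here too every axon library was below every soma library.
S100b had 158, 152, 98.8 and 120 CPM in central axons and 346, 285.5, 478 and 689 in somas, a 4.56-fold lower level (-2.19 ± 0.36 log2). This gene was chosen with that difference known, and the value is given as a description; the groups did not overlap.
S100a11 fell by 1.73 ± 0.42 (adjusted p = 0.017), S100a10 by 1.73 ± 0.50 (0.036), Anxa2 by 1.71 ± 0.50 (0.038) and Anxa5 by 1.74 ± 0.52 (0.043). These 4 partners thus differed by nearly equal amounts, and their ranges overlapped between axon and soma. Anxa6 (-1.10 ± 0.38, adjusted p = 0.070) and S100a4 (-2.30 ± 0.88, adjusted p = 0.10) did not pass, and Anxa1 had too few reads. S100a4, S100a6, Ahnak and the chosen S100b, 4 of 9, had axon ranges wholly below the somas, as did 4.17% of all genes. Nociceptor markers were lower in central axons too (873 to 4950.0 against 2561 to 5702 CPM, 4 of 9 tested called lower and 0 higher). Markers of cells of the spinal cord and roots were higher: astrocyte markers summed to 296 to 1347 against 1.99 to 32.02 CPM (5 of 6 called higher), oligodendrocyte markers to 204 to 1608 against 43.9 to 140.3 (4 of 5) and spinal neuron markers to 84.2 to 291 against 1.27 to 6.99 (5 of 5, with 4 at 0 in all Cre somas). Their part in the differences of the members was not tested.
Scaling by library size alone ended the calls of Anxa2 (adjusted p = 0.052) and Anxa5 (0.066). With all groups sharing 1 estimate of spread 0 members and 15 of all genes were called (adjusted p 0.35 for S100a6 and 1.0 for Anxa5). Leaving out 1 library gave 3 to 9 called members, S100b counted. S100a6 and Ahnak were called in each of those 8 fits, while Anxa2, Anxa5 and S100a10 were called in 2.
Control libraries showed lower values in central axons than somas as well. Of 9 members tested 0 were called there and 0% of all genes, with 1138 genes at an unadjusted p under 0.05. DESeq2 called 2 members, Anxa1 and Ahnak, and gave no adjusted p for Anxa2, Anxa5, S100a6, S100a10 and S100a11. The fit of all groups called 7 members and 3855 of all genes. Fitted differences ran from -6.25 ± 1.40 (S100a6) to -1.33 ± 1.36 (S100b), and soma control 3 enters them. Without it S100a6 was -3.01 and S100a10 -2.21. The test of whether the Cre difference exceeded the control difference called 0 of 10 members and 0% of all genes, with 3133 genes at an unadjusted p under 0.05. The values nearest to a call were 2.04 ± 0.68 for Anxa2 (adjusted p = 0.12), 2.97 ± 1.12 for S100a6 (0.15) and 2.47 ± 0.94 for S100a10 (0.15). Without soma control 3 they were 1.65, 0.49 and 0.71. DESeq2 called 1 member, Anxa1.

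In peripheral axons the members split. The annexins Anxa2, Anxa5 and Anxa6 and the Anxa2 partner S100a10 were lower than in batch 2 somas. Ahnak, S100a4 and another annexin, Anxa1, were higher. Of 10 members 7 were called, where 31.2% of all genes were called, 18.7% called higher and 12.5% called lower. The median was -0.21 log2 over members and -0.03 over all genes.
Anxa2 fell by 1.51 ± 0.34 log2 (adjusted p = 0.0059), from 2504 to 3744 CPM in somas to 1173 to 1650.1 in axons. Anxa5 had 637, 749, 689.6 and 876 CPM in axons, below each of the somas given above (-1.79 ± 0.36, adjusted p = 0.0037). Anxa6 had 206.5, 349, 122 and 241 CPM in axons and 548, 491, 483 and 511 in somas (-1.35 ± 0.31, adjusted p = 0.0077). For these 3 annexins and for S100a10 the groups did not overlap, 4 of 10 members below the somas, where 16% of all genes were, and the 4 soma values of Anxa6 lay close together.
S100a10 fell by 1.19 ± 0.41 (adjusted p = 0.047), with axon libraries of 668.5 to 1649 CPM below somas of 1865 to 2847. S100a11 (-0.69 ± 0.39) and S100a6 (0.26 ± 0.54) overlapped with the somas and were not called.
Ahnak had 577, 694, 307 and 824 CPM in axons and 215, 225, 164 and 150.1 in somas, a 2.76-fold higher level (1.46 ± 0.31 log2, adjusted p = 0.0046). Anxa1 had 63.2, 13.6, 30.99 and 19.9 CPM in axons and 3.75, 2.19, 1.07 and 0.916 in somas (3.80 ± 0.63, 13.97-fold, adjusted p = 0.0012). S100a4 had 1.70, 5.51, 18.8 and 3.64 CPM against 1.31, 0.900, 0.917 and 0.687 (2.84 ± 0.88, adjusted p = 0.029), from 7 to 83 counts a library. All 3 stood wholly above the somas. With S100b they made 4 of 10 members, where 20.7% of all genes did so.
S100b had 320.0 to 497 CPM against 168 to 297, also without overlap, but missed the threshold (0.78 ± 0.29, adjusted p = 0.061).
Leaving out 1 library left 5 to 7 members called; Anxa1, Ahnak, Anxa2, Anxa5 and Anxa6 were called in all 8 such fits, and S100a4 and S100a10 in 3. The fit of all groups called 3 members, all lower, and 1404 of all genes. The control libraries of sciatic nerve held Ahnak and Anxa1 at levels that overlapped the Cre libraries, as given above. In controls, axon against soma called 0 of 9 members (edgeR and DESeq2) and 0.0802% of all genes, with 1341 genes at an unadjusted p under 0.05; Ahnak differed there by 1.46 ± 0.55 and S100b by -1.55 ± 0.57 log2. The test of the Cre difference against the control difference called 0 of 10 members in edgeR and 0.00636% of all genes, with 1531 genes at an unadjusted p under 0.05. Ahnak stood at -0.13 ± 0.60 in that test, Anxa1 at 3.47 ± 1.60 (adjusted p = 0.48) and S100b at 2.18 ± 0.60 (0.29). DESeq2 called 1 member, S100b, and 343 of all genes. Nociceptor markers were lower in peripheral axons (452 to 1545 against 2456 to 4348 CPM, 6 of 9 tested called lower), and their part in the lower annexins was not tested. Fibroblast and perineurium markers summed to 3862 to 6802 CPM in peripheral axon Cre libraries and 187 to 382 in Cre somas, and macrophage markers (7 genes, none at 0) to 65.2 to 125 against 17.3 to 32.4. Their part in the levels of Ahnak, Anxa1 and S100a4 was not tested.

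**Figure D2:**
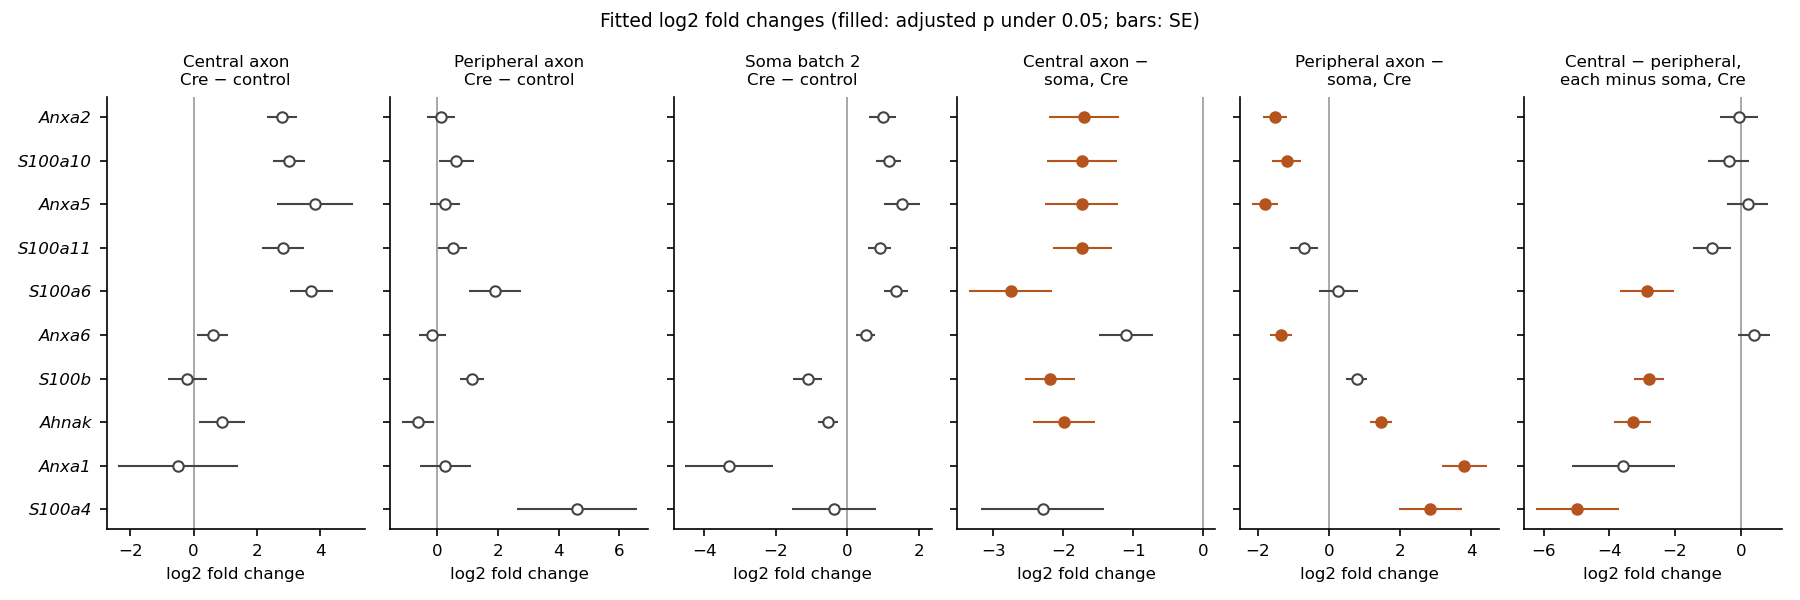
Fitted log2 fold changes of the 10 genes (horizontal axis, each panel with its own scale) with SE bars in 6 comparisons; filled points had an edgeR adjusted p under 0.05. The S100b points of the fourth and last panels are descriptions, and the S100a4 point of the second panel has controls at or below the floor.

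The Cre axon against soma difference of batch 1 was then set against that of batch 2. Anxa2 and S100a10 did not differ between central and peripheral axons beyond their error, whereas their scaffold partner Ahnak did. The values were -0.05 ± 0.58 log2 for Anxa2, with S100a10 (-0.37 ± 0.63), Anxa5 (0.21 ± 0.63) and Anxa6 (0.40 ± 0.49) also within their error. Ahnak was lower on the central side by 9.78-fold (-3.29 ± 0.56, adjusted p = 0.0013), S100a4 by -4.98 ± 1.26 (adjusted p = 0.015) and S100a6 by -2.86 ± 0.81 (adjusted p = 0.026). S100b stood at -2.79 ± 0.45, which includes the central difference it was chosen with. Anxa1 (-3.57 ± 1.58, adjusted p = 0.14) and S100a11 (-0.88 ± 0.58) were not called. In controls, where this test was not run, Ahnak differed from soma by -3.36 ± 1.39 log2 in central and 1.46 ± 0.55 in peripheral axons. For S100a6 the control values were -6.25 ± 1.40 and -0.34 ± 0.67, and for Anxa2 -3.93 ± 1.04 and -0.71 ± 0.59. Soma control 3 enters the central values, and the part of untagged RNA in the Cre differences was not tested. Leaving S100b aside, 3 of 9 members were called, all lower (4 of 10 with it), and these counts are descriptions. Of all genes 13.1% were called and 5.88% called lower. The medians were -1.83 log2 over members, S100b counted, and 0.26 over all genes. Without S100b, the middle of the other 9 values was that of S100a11, -0.88.
The 3 calls were lost in the fit of all groups, which called 0 of the 10 members and 1 of all genes. Over 16 fits with 1 library left out, Ahnak and S100a4 were called in 16 and S100a6 in 11. Schwann cell and satellite glia markers were 1898 to 9026 CPM in central and 10891 to 29139 in peripheral axon Cre libraries, and their part in these differences was not tested.

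**Figure D3:**
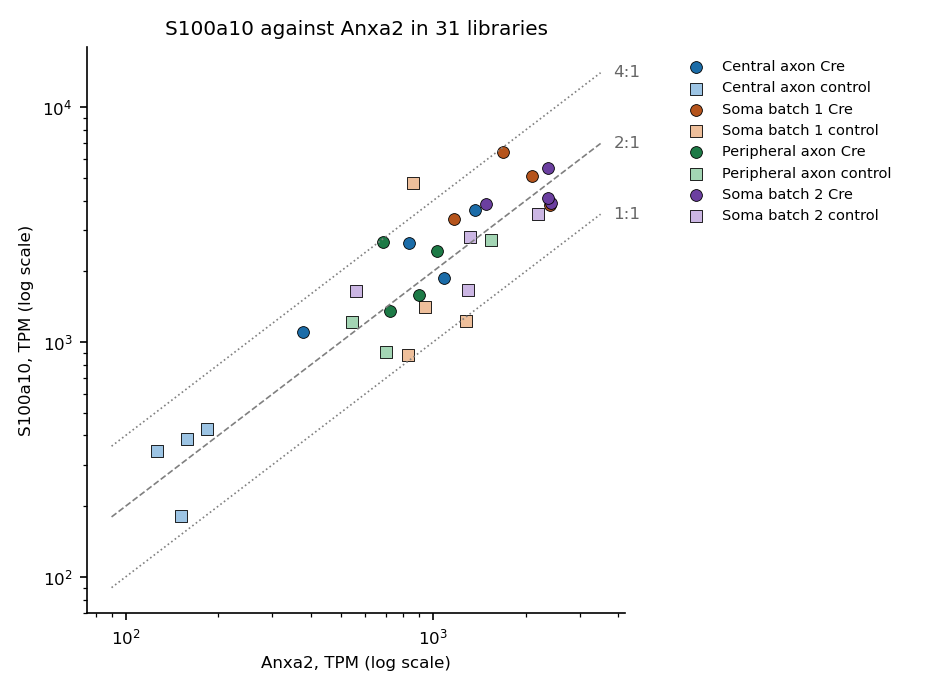
S100a10 against Anxa2 in TPM, both axes logarithmic, 1 point per library (circles Cre, squares control), with lines at S100a10 to Anxa2 ratios of 1, 2 and 4. Most points lie between the outer lines while the levels of both genes spread widely, and the soma control 3 of batch 1 lies above the upper line.

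Anxa2 and S100a10 protein assemble in equal parts, and the ratio of their RNAs was compared per length. Per length, S100a10 exceeded Anxa2 in 30 of 31 libraries. That excess depends on the merged exon lengths used, 3731 bases for Anxa2 and 1212 for S100a10. In unscaled counts S100a10 exceeded Anxa2 in central axon Cre 2, peripheral axon Cre 3, and batch 1 soma Cre 3 and control 3. In the other libraries it was below Anxa2. The ratio per length was 2.68, 3.18, 1.72 and 2.93 in central axon Cre libraries and 1.60, 2.44, 3.81 and 2.86 in batch 1 Cre somas. It was 1.75, 2.39, 3.89 and 1.88 in peripheral axon Cre libraries and 1.63, 2.61, 2.34 and 1.74 in batch 2 Cre somas. Among controls the medians were 2.38 (central axons), 1.78 (peripheral axons), 1.27 (batch 1 somas, from 0.959 to 5.54) and 1.85 (batch 2 somas). The ranges of all these groups overlapped.
None of 8 comparisons of the log2 ratio passed an exact two-sided permutation test, whose smallest possible p is 0.029. After adjustment over the 8, a single comparison at that p could not have passed on its own. Raw p-values ran from 0.34 to 1, and adjusted over the 8 from 0.88 to 1. Between central axon and soma Cre libraries the mean log2 ratios were 1.36 ± 0.39 and 1.36 ± 0.52 (SD, n = 4 each), and between peripheral axon and soma 1.23 ± 0.52 and 1.03 ± 0.33. With so few libraries a group the test could miss a difference of the size of these SDs or larger, so it does not show equal ratios.

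**Figure D4:**
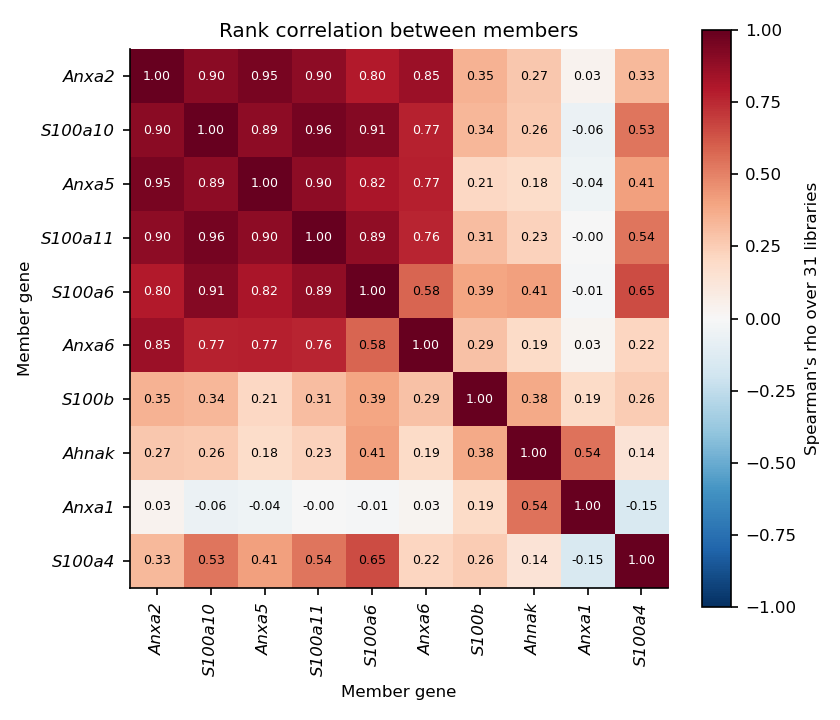
Spearman's rho between each pair of the 10 genes (rows and columns) over 31 libraries, colour from -1 to 1. Anxa2, S100a10, Anxa5, S100a11 and S100a6 form a block between 0.80 and 0.96, and Anxa1 and Ahnak share 0.54.

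Over all 31 libraries the CPM of Anxa2, Anxa5, S100a6, S100a10 and S100a11 rose and fell together, with Spearman's rho between 0.80 (Anxa2 with S100a6) and 0.96 (S100a10 with S100a11). These are descriptions over libraries that share tissue, batch and genotype. Anxa6 was nearest to Anxa2 (rho 0.85). Ahnak, S100b, Anxa1 and S100a4 stood outside that block; the closest of them to each other were Anxa1 and Ahnak (0.54), and S100a4 was nearest to its neighbour S100a6 (0.65).
Among 10359 genes with a mean of at least 10 CPM, those most like Anxa2 were Ppp1r2 (rho 0.957), Anxa5 (0.949) and Fkbp1a (0.946). For S100a10 they were S100a11 (0.957), A2ml1 (0.948) and Serpinb6a (0.946). For S100b they were Chmp4b (0.814), Ufm1 (0.765) and Ggnbp2 (0.752), and for Ahnak Sh3pxd2a (0.929), Purb (0.826) and Rpl13 (0.819).

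The rest of both families and their known partners are set beside the shares of all genes given above, 13.7% called in central and 31.2% in peripheral axons against soma. With so few genes tested per list, no list is read as apart from them. Of 8 other annexins, 3 were tested in central axon against soma Cre libraries and 4 in the peripheral comparison, and Anxa7 was the 1 called in each, lower by -1.43 ± 0.37 (adjusted p = 0.024) and -0.88 ± 0.28 log2 (0.033). Anxa7, which binds membranes in calcium-driven secretion, thus moved the same way as Anxa2 in both axons.
Of 11 other S100 genes, 5 and 6 were tested. S100a13 was lower in central axons (-2.76 ± 0.49, adjusted p = 0.0044), while S100a3 (2.43 ± 0.69, 0.019) and S100a16 (1.79 ± 0.46, 0.012) were higher in peripheral axons. In peripheral axons the mean of S100a3 was 11.2 CPM in Cre and 11.4 in control libraries, and that of S100a16 113.9 and 72.9. S100a14 was called lower in peripheral axons, where all 4 libraries held no read, against 0.687 to 1.49 CPM in somas, near the floor, and no fold is given for it.
Of 18 binding partners and receptors, 11 were tested in each. Plat, the plasminogen activator that binds the Anxa2 complex at the cell surface, was higher in central (2.01 ± 0.47, adjusted p = 0.015) and peripheral axons (2.71 ± 0.43, 0.00081). Its mean was 42.0 CPM in Cre and 85.7 in control libraries of central axons, and 42.9 and 79.8 in peripheral axons. Kcnk3 (TASK-1), a potassium channel that S100a10 binds, was higher in central axons (1.95 ± 0.49, 0.020). There its mean was 51.5 CPM in Cre and 44.3 in control libraries. Ahnak2, the paralog of Ahnak, was lower in both (-1.56 ± 0.43, adjusted p = 0.030, and -1.73 ± 0.38, 0.0055), unlike Ahnak, which was higher in peripheral axons. Scn10a, the channel that S100a10 carries, was lower in peripheral axons than somas (-1.39 ± 0.49, adjusted p = 0.049), and Cacybp, the S100a6 partner, by -1.09 ± 0.31 (0.019).
Of 13 membrane repair genes, 11 and 12 were tested. The calpain Capn1 (-1.83 ± 0.33, adjusted p = 0.0043) and the ESCRT subunit Chmp4b (-2.34 ± 0.49, 0.0095) were lower in central axons, and Capns1 (-1.20 ± 0.37, 0.030) and Vps4b (-0.95 ± 0.28, 0.024) in peripheral axons. The caveolar coat gene Cavin1 was higher in peripheral axons (3.70 ± 0.48, 0.00022). Relative to soma, S100a13 (-2.57 ± 0.70), Chmp4b (-2.45 ± 0.73) and Cavin1 (-4.89 ± 0.81) were lower in central than peripheral axons, as Ahnak, S100a4 and S100a6 were. Against controls no gene of these 4 lists was called in axons or in batch 2 somas; in batch 1 somas S100g and Htr1b were called higher, in the comparison that soma control 3 enters.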

How the data were processed

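Per the file headers, the authors deposited whole-number counts of reads for each gene, in a table per batch. STAR 2.7.2b and mm10 are named in the submitters' processing notes. The counting program and its handling of strand and duplicates are not given in the sources used here. RNA was estimated at under 100 pg for axons and under 1 ng for somas, and libraries were made with SMART-Seq v4, per the labels' protocols. All 55536 identifiers matched GENCODE M21, and 0 columns were left out. In batch 1 the same header stands over 2 soma control columns, which were assigned to their group only.

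Counts were fitted with edgeR 4.0.16 in R 4.3.3, each comparison on its own groups: filterByExpr (minimum count 10, minimum total 15), TMM, glmQLFit and glmQLFTest, with Benjamini-Hochberg adjustment over all genes tested and a threshold of 0.05. The SE is the log2 fold change over the square root of F. The fitting code was tested on simulated data. TPM used merged exon lengths. The ratio of S100a10 to Anxa2 was taken with 1 count added to each and tested by exact permutation. Alternatives were RLE scaling, library size only, no low-count filter, DESeq2 1.42.0, all groups in one fit, the replicate number as a block, other added counts, and each library left out. The members and lists were chosen with earlier results of these data known. All members are named throughout; of other lists, at most 3 called genes per direction and comparison, by smallest adjusted p. No 2 replicates were copies (lowest chi-square per degree of freedom 24.8 over 45 pairs).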

Additional observations from a re-analysis of the deposited data

Results flagged for a closer look

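Looked at were 70 groups of 4 libraries (10 genes in 7 groups). In 6 cases the gap between an extreme library and the next exceeded Dixon's critical value of 0.829 times the group's range. For independent, normally distributed values chance gives about 1 in 20. These CPM share libraries and are partly at or near 0, so the 6 cases are not set against that rate. In batch 1 somas, control 3 was far above the other controls for S100a6 (4813 CPM, the next 891) and S100a10 (2488 CPM, the next 634), and for S100a4 it held 3 counts (0.324 CPM) where the others held 0. Anxa5 was highest in control 1 of that group (877 CPM, the next 543). S100a4 stood out in central axon control 4 (9.01 CPM, the next 0.727) and in batch 2 soma control 6 (5.18 CPM, the next 0.553).

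The difference from soma among Cre libraries was not the same in central and peripheral axons for 3 members by the test of the difference: Ahnak (-3.29 log2, central minus peripheral), S100a4 (-4.98) and S100a6 (-2.86). S100b stood at -2.79, a value given as a description, since it holds the central difference the gene was chosen with. Axon type and batch cannot be told apart in these values. Against soma, Ahnak stood at -3.36 ± 1.39 log2 in central axon controls and 1.46 ± 0.55 in peripheral axon controls.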

How the results depend on the processing

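The number of members called in central axon Cre against control libraries (0) was 3 without the low-count filter, 4 with DESeq2 and 0 to 1 with a library left out. In batch 1 somas (1) it was 2 under library size only, 0 with the replicate block and 0 to 5 with a library left out. In batch 2 somas (0) it was 1 without the filter, 4 with DESeq2 and 0 to 5 with a library left out. With all groups in one fit it went from 7 (S100b counted) to 0 for central axon against soma Cre libraries and from 7 to 3 for peripheral. It went from 4 (S100b counted) to 0 for central against peripheral, and from 0 to 7 for central axon against soma controls. The last gave 2 with DESeq2, which left Anxa2, Anxa5, S100a6, S100a10 and S100a11 with no adjusted p, and 1 without the filter. Leaving out a library gave 3 to 9 for central axon against soma Cre, S100b counted. DESeq2 called 1 in each test of the Cre against the control difference. RLE scaling moved none of the 11 counts. The calls over all genes moved too, to 216 with DESeq2 in central axon Cre against control. They were 1826 in batch 2 somas without control 5 and 3094 in batch 1 somas without control 3. With all groups in one fit, central axon against soma controls called 3855. Values that reversed were all of batch 1 somas: Anxa5 1.85 under library size only, and without soma control 3 Anxa5 1.75, S100a6 3.07 and S100a10 2.16. With a library left out these 3 ran from -1.29 to 1.75, -3.29 to 3.07 and -3.28 to 2.16. No comparison of the ratio of S100a10 to Anxa2 changed with the counts added or a library left out. With groups this small a single comparison could not have passed on its own after adjustment. Library size scaling moved the median of all genes in central axon against soma Cre from 0.05 to 0.50 log2. The cause of these shifts was not tested.

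Replicate numbers were not used as pairs in the main fits. In central axon against soma Cre, same-numbered deviations correlated at -0.01 to 0.24 and the others at -0.28 to 0.28. These overlapping ranges do not settle whether same-numbered libraries belong together. The replicate block gave 8 called members in that comparison, Anxa6 added and S100b counted, and 0 in batch 1 somas. With the block, the SE of Anxa2 in central axon against soma Cre went from 0.50 to 0.33. Peripheral axons and batch 2 somas share no numbers. Depth limits S100a4 in all groups, with at most 89 reads in a library, and Anxa1 in central axons and Cre somas, with at most 60.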
